A study of Drosophila melanogaster with 30 samples.

Results

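The occupancy of CrebB along the genome was examined in the mushroom bodies (MBs) of naïve flies, which had received no training. The series holds 30 samples, and 6 of them are naïve, 3 with Dam::CrebB and 3 with Dam-only. These 6 samples give 3 of the 15 deposited profiles, and each profile gives, on the log2 scale, the Dam::CrebB signal relative to Dam-only at 383654 GATC fragments. All genes of a RefSeq table for release 6 were taken as members, and the value of a gene is the length-weighted average of this ratio for all fragments touching its body. Of 17807 genes on the chromosome arms of the profiles, 17802 overlapped a fragment and 360 of these were at 0 in every naïve replicate, which left 17442 genes tested. Values above 0 stand for more methylation in flies with the fusion protein, and values below 0 for more in flies with free Dam.

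In Targeted DamID (TaDa), the adenine methyltransferase Dam is fused to a DNA-binding protein, and the GATC sites near its binding places become methylated without a cell sort. The naïve flies were adult offspring of UAS-Dam or UAS-Dam-CrebB crossed to tubGal80ts; mb247-Gal4, a driver made from an enhancer of the Mef2 gene that is active in Kenyon cells. Paired and unpaired flies came from the same crosses, and a shift from 18°C to 29°C inactivated Gal80ts. Genomic DNA came from pools of 50 to 100 heads per sample, so the cell type rests on the driver alone, and cells outside the MBs in which it is active also count. The unpaired flies used for comparison received odor and sucrose apart in time and expressed Dam or Dam::CrebB from 3 h before to 24 h after conditioning (TI-1) or from 24 to 48 h after it (TI-2). The labels of the naïve samples give the time as 0 and no interval, whereas the text of the study describes naïve flies for both intervals. Which interval these samples cover is therefore uncertain. CrebB is the fly homolog of the cAMP response element binding protein, a bZIP transcription factor that is phosphorylated by protein kinase A and other kinases and is required for long-term memory. In the MBs, the Kenyon cells receive odor input and dopaminergic reinforcement, and cAMP signalling in these cells is a classical part of olfactory learning. Occupancy is not expression, so each value below describes methylation near a gene and not its transcript.

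The 3 naïve profiles ranked the genes in much the same order. Over the 17442 genes, the correlation across genes was 0.92 between replicates 1 and 2, 0.93 between replicates 1 and 3, and 0.95 between replicates 2 and 3. Genes are not independent replicates, because neighbours share fragments. Replicate 1 had a narrower spread, with an SD over genes of 0.32 compared to 0.49 in replicate 2 and 0.48 in replicate 3. A log2 ratio of the same sign in 3 of 3 replicates was found for 82.5% of genes, of which 7512 were positive and 6874 negative. Only 56 genes had a replicate above 0.2 and another below -0.2. The methods state only an average read number per sample, so the read depth behind each profile is unknown, and 18.6% to 19.9% of the fragments of a naïve profile were listed at exactly 0.

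**Figure D1:**
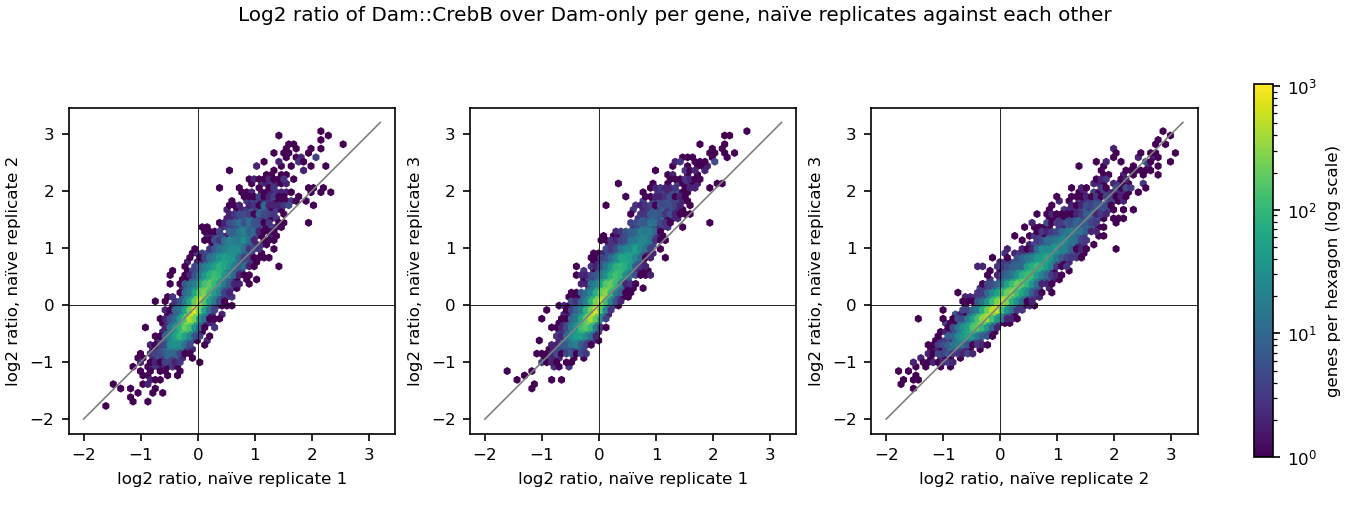
Log2 ratio (Dam::CrebB against Dam-only) per gene, each naïve replicate (axes, log2 scale) against another, with the colour of a hexagon giving the number of genes on a log scale and the grey line marking equal values. The points of replicate 1 lie on a steeper line than the diagonal (SD over genes 0.32 against 0.49 and 0.48), and those of replicates 2 and 3 lie along it.

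The 3 replicates were tested against 0 with limma, and calls needed both an adjusted p (Benjamini-Hochberg) under 0.01 and a mean log2 ratio above 0.2 in size. A total of 1593 genes were called above 0, which is 9.13% of the genes tested. A further 461 genes were called below 0, or 2.64%. The median log2 ratio was 0.76 for the genes called above and -0.47 for those called below. Without a test, 3972 genes (22.8%) lay above 0.2 in 3 of 3 replicates and 1728 (9.91%) lay below -0.2. Each called gene was among these, so the test selected a part of the genes on which the replicates agreed. The smallest adjusted p over all genes was 0.00902, close to the threshold, and an adjusted p under 0.05 gave 5058 genes above and 3051 below. The count rests on the spread of 3 replicates, since 0 genes passed when replicate 2 or replicate 3 was left out, and 3645 above and 1350 below passed without replicate 1. The study calls the replicates biological, and the p-values measure the spread between them.

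The fragments above 0.2 in 3 of 3 replicates were fewer outside genes than inside. They made up 15.1% of the 289557 fragments that overlapped a gene and 8.39% of the 94097 that overlapped none. Below -0.2 lay 9.79% of the genic and 6.82% of the other fragments, while 10.7% and 27.9% were at exactly 0 in all 3. Neighbouring fragments above 0.2 formed 15073 runs with a median of 3 fragments, and 3439 of these held at least 5. Fragments below -0.2 formed 16581 runs with a median of 2 fragments, and 1113 of these held at least 5. The high fragments thus formed longer stretches on this measure, and the widest stretch measured 22.1 kb compared to 8.57 kb for the low fragments. High fragments were also more frequent, at 13.4% of all fragments compared to 9.06% for low ones. How much this frequency adds to the length of the stretches was not tested. 

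The widest high stretch lay on chromosome 3R from 9942218 to 9964270 (release 6) within Glut4EF and CG46467, and its log2 ratios in replicates 1 to 3 were 1.20, 1.69 and 1.74. The second spanned 19.2 kb of shn on chromosome 2R (11190529 to 11209758), a zinc finger regulator of the Dpp pathway, with values of 1.34, 1.87 and 1.92. Stretches of 13.7 kb in the receptor tyrosine kinase gene Tie and of 13.5 kb in CLIP-190, a microtubule plus-end protein, followed. Their lowest replicate values were 0.55 for Tie and 1.06 for CLIP-190. Every fragment of a high stretch is above 0.2 in each replicate by definition, so the positive sign follows from the choice. The widest low stretch was in Hcf on chromosome 4 (366476 to 375046), where the log2 ratios were -0.56, -0.92 and -0.77. The second, of 7.14 kb, lay in stw on chromosome 2R, with values of -0.43, -0.72 and -0.52. These genes were found by the width of the stretch and were not tested as stretches.

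Among genes with at least 5 fragments, CG17734 had the highest value of those called (chromosome 3R, 11242208 to 11243999, 6 fragments). Its log2 ratios were 2.02, 2.41 and 2.63 in naïve replicates 1 to 3, with a mean of 2.35 ± 0.31 (SD, n = 3, adjusted p = 0.00902 from limma). All 6 of its fragments lay above 0.2 in every replicate. The antisense gene asRNA:CR45868 came next with 1.61, 2.66 and 2.37, and it lies within the protein-coding gene bip1, so that the signals of both cannot be told apart. CG32280 followed with 1.58, 2.12 and 2.12, and all of its 11 fragments were above 0.2. For each of these 3 genes, replicate 1 was the lowest of the naïve values. That all replicates lay above 0 follows from the choice of the highest called genes.

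The gene porin, which encodes the voltage-dependent anion channel of the outer mitochondrial membrane, had log2 ratios of 1.57, 2.10 and 2.13 (chromosome 2L, 10847227 to 10850848). Only 6 of its 11 fragments were above 0.2 in all replicates, so its value comes from a part of the gene. The phospholipid scramblase gene scramb2 had 1.54, 1.95 and 2.12, with all of its 11 fragments above 0.2. AP-2sigma, the small subunit of the clathrin adaptor complex AP-2, had 1.38, 2.18 and 2.02 over 6 fragments. The 12 highest genes were completed by CG30159, CG13516, slv, lncRNA:CR45029, lncRNA:CR46052 and lncRNA:CR44830, with means between 1.79 and 1.84. Several of them share their ground with another gene. CG30159 lies inside Tsp42Ea, lncRNA:CR45029 inside Glut4EF, and lncRNA:CR46052 inside cysu, while CG32280 and porin overlap Asciz and SmydA-3 in part.

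The lowest genes reached smaller sizes than the highest. CG5665 on chromosome 3L (20358512 to 20359820, 5 fragments) had log2 ratios of -1.32, -1.50 and -1.21, with a mean of -1.34 ± 0.14 (SD, n = 3, adjusted p = 0.00902 from limma). The cuticle protein gene Cpr78E had -0.89, -1.26 and -1.03. Ir60f, of the ionotropic receptors but listed as a pseudogene, had -0.75, -1.08 and -1.08. All 5 fragments of CG5665 and all 6 of Ir60f were below -0.2 in every replicate, compared to 3 of 5 for Cpr78E. Dnali1, a light intermediate chain of axonemal dynein, had -0.86, -0.88 and -0.80. Rsph1, named for a component of the radial spoke of motile cilia, had -0.55, -0.91 and -0.84, and CycJ, a cyclin of the ovary, had -0.74, -0.85 and -0.76. The others of the 12 lowest were CG14655, CG11672, CG30088, CG33465, CG4592 and CG45095, with means from -0.95 to -0.79. Here too, ground was shared. CG33465 lies wholly inside tun, CG30088 wholly inside the antisense gene asRNA:CR44372, and 1027 bp of Rsph1 overlap CG16974. None of the fragments of the 12 lowest genes was above 0.2 in all replicates.

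Long genes were ranked apart, because a mean over many fragments is less open to a single one. Of the genes with at least 50 fragments, snu was the highest, an ABC transporter needed for the barrier of the cuticle (chromosome 3R, 28675041 to 28695939, 67 fragments). Its log2 ratios were 0.96, 1.43 and 1.36, and 41 of its fragments were above 0.2 in every replicate. Hnf4, a nuclear receptor of lipid and glucose metabolism, had 0.88, 1.31 and 1.30 over 78 fragments. The clock gene vri, a bZIP repressor of Clk, had 0.85, 1.12 and 1.13 over 54 fragments. Treh, which encodes trehalase, the enzyme that splits the sugar of fly haemolymph, had 0.86, 1.09 and 1.13 over 58 fragments, and Pino had 0.84, 1.05 and 1.18 over 53. In each of these 5 genes, the naïve replicates lay within 0.48 of each other. That none was near 0 follows from the choice of the highest called genes.

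At the low end, alpha-Cat, the adherens junction protein α-catenin, had log2 ratios of -0.43, -0.59 and -0.51 over 71 fragments on chromosome 3L (23318646 to 23338100). Vps13D, a lipid transfer protein needed for mitochondrial clearance, had -0.43, -0.59 and -0.51 over 54 fragments. Nipped-B, the loading factor of cohesin, had -0.34, -0.52 and -0.44 over 124 fragments, of which 70 lay below -0.2 in every replicate and none above 0.2. CG17698 had a mean of -0.39 and Stlk one of -0.38. The low values of these long genes were thus spread over many fragments and were smaller in size than those of the short genes above. CG17698 (3L, 23737960 to 23749058) lies near alpha-Cat, and Stlk (2R, 4546691 to 4565281) near Nipped-B (2R, 4691672 to 4729017). Vps13D lies elsewhere on 3L (12755049 to 12768605), and the part of position in these values was not tested.

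**Figure D2:**
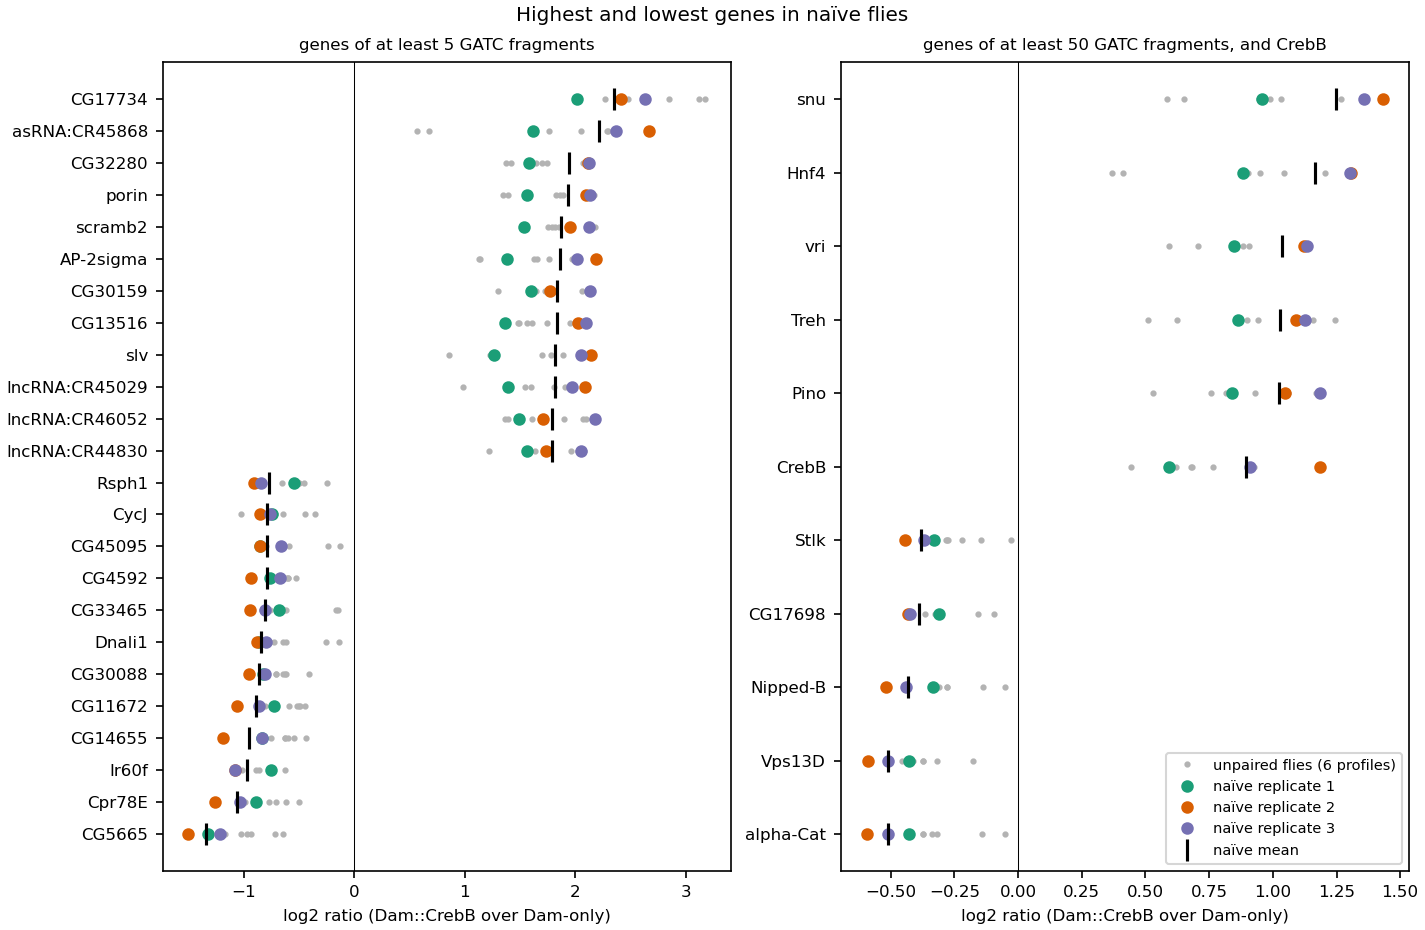
Log2 ratio (Dam::CrebB against Dam-only, horizontal axis) for the highest and lowest called genes with at least 5 (left) and at least 50 fragments (right), and for CrebB. Coloured dots are the naïve replicates, black ticks their means and grey dots the 6 unpaired profiles. CG17734 is the highest at 2.02 to 2.63 and CG5665 the lowest at -1.50 to -1.21.

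The gene CrebB (chromosome X, 18366357 to 18377864) holds 33 fragments, of which 14 were above 0.2 in every naïve replicate and none below -0.2. Its log2 ratios were 0.59, 1.19 and 0.91, with a mean of 0.90 ± 0.30 (SD, n = 3), and it took place 925 of 17442 genes. With an adjusted p of 0.0122 from limma, it did not pass the threshold of 0.01. Flies with Dam::CrebB hold extra CrebB coding sequence in the transgene that Dam-only flies lack, and reads from the transgene and from the gene cannot be told apart in these ratios.

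The values varied with gene length. Of protein-coding genes shorter than 1 kb, 16.5% were above 0.2 and 13.9% below -0.2 in 3 of 3 replicates. These shares were 37.6% and 5.28% for genes of 10 to 20 kb, and 12.8% and 1.28% for genes over 50 kb. High values were therefore most frequent at intermediate length, whereas low values became rarer with every length bin. In genes of 20 to 50 kb, 512 of 706 were positive in 3 of 3 replicates, compared to 816 of 2563 in genes under 1 kb. Any list of long genes starts from these shares, and how much length adds to the lists below was not tested. 

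The mean signal of 3489 protein-coding genes of at least 5 kb was highest near the gene ends. At 2000 bp outside it was 0.11, at 250 bp inside it was 0.25, and at 2000 bp inside it was 0.13, with a peak at 250 or 500 bp inside in each replicate. Gene start and gene end were pooled, because the gene table lists no strand. The 441 genes of this length that were called above had 0.25 at 2000 bp outside, 0.64 at 500 bp inside and 0.66 at 2000 bp inside. The 51 called below had -0.17, -0.30 and -0.46 at the same places. Both groups were chosen by the values of these same fragments over the gene body. Their high and low values inside the gene therefore follow from the choice.

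**Figure D3:**
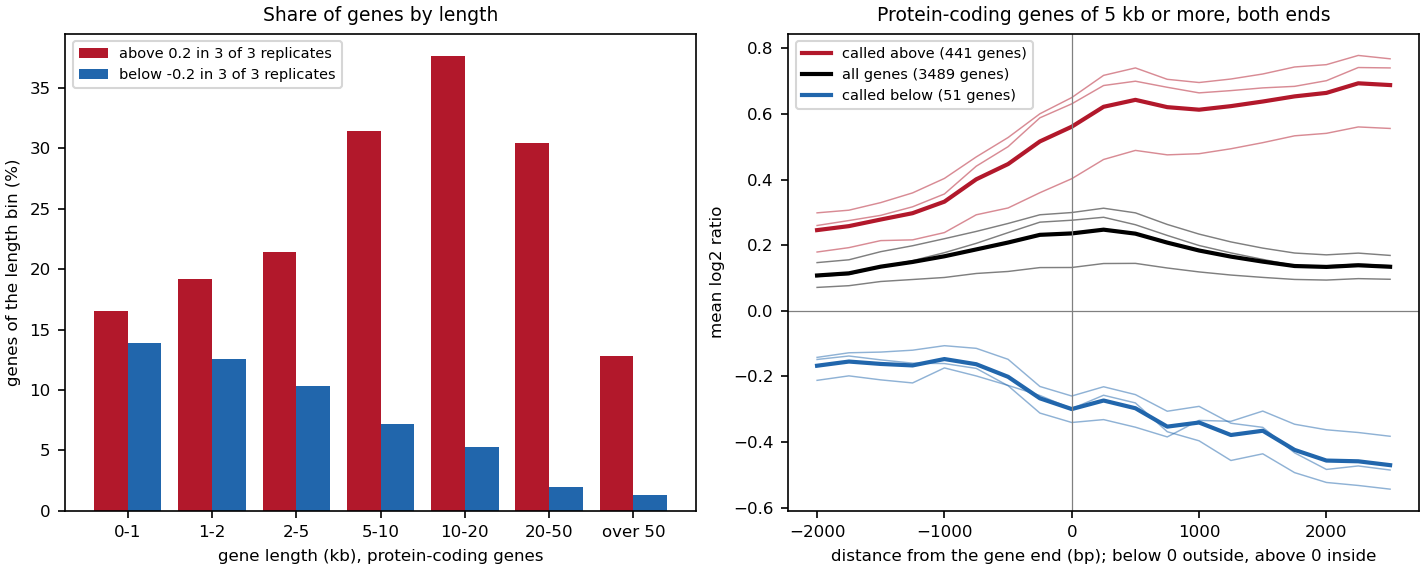
Left, the percentage of protein-coding genes above 0.2 (red) and below -0.2 (blue) in 3 of 3 naïve replicates by gene length in kb, which reaches 37.6% and 5.28% at 10 to 20 kb. Right, the mean log2 ratio by distance in bp from the ends of protein-coding genes of at least 5 kb, where thin lines are the naïve replicates and thick lines their mean, which peaks at 0.25 at 250 bp inside for all genes. Genes called above and below were chosen by these same values, so the level of their lines inside the gene follows from the choice.

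The large chromosome arms resembled each other, with 7.62% (2L) to 10.9% (2R) of genes called above. On the X, 1.02% of 2638 genes were called below, compared to 2.17% to 3.32% on the autosomal arms 2L, 2R, 3L and 3R. Chromosome 4, a small and mostly heterochromatic chromosome, differed from them in direction. Its 114 genes had medians of -0.16, -0.17 and -0.10, with 1 gene called above and 18 below. Chromosome Y showed next to no signal in 80 genes, of which none lay beyond 0.2 in 3 of 3 replicates. Among gene types, antisense RNA genes had a median of 0.12 with 69 of 503 called above, and pseudogenes had a median of -0.03 with 5 of 242 called in each direction. Protein-coding genes had a median of 0.01, with 1280 of 13777 called above and 383 below.

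For gene classes, 56 lists were described by their counts and medians, beside the median of all genes of 0.00, 0.01 and 0.04 in replicates 1 to 3. Where a single median is given for a list, it is that of the means over replicates. The median lay above 0 in 3 of 3 replicates for 28 lists and below 0 for 18. It was nearest to 0 in replicate 1 for 49 lists, as this replicate has the narrowest spread. Only 4 lists had a median above 0.2 in every replicate, and none had one below -0.2. The counts of called genes below are to be read against 9.13% above and 2.64% below for all genes.

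**Figure D4:**
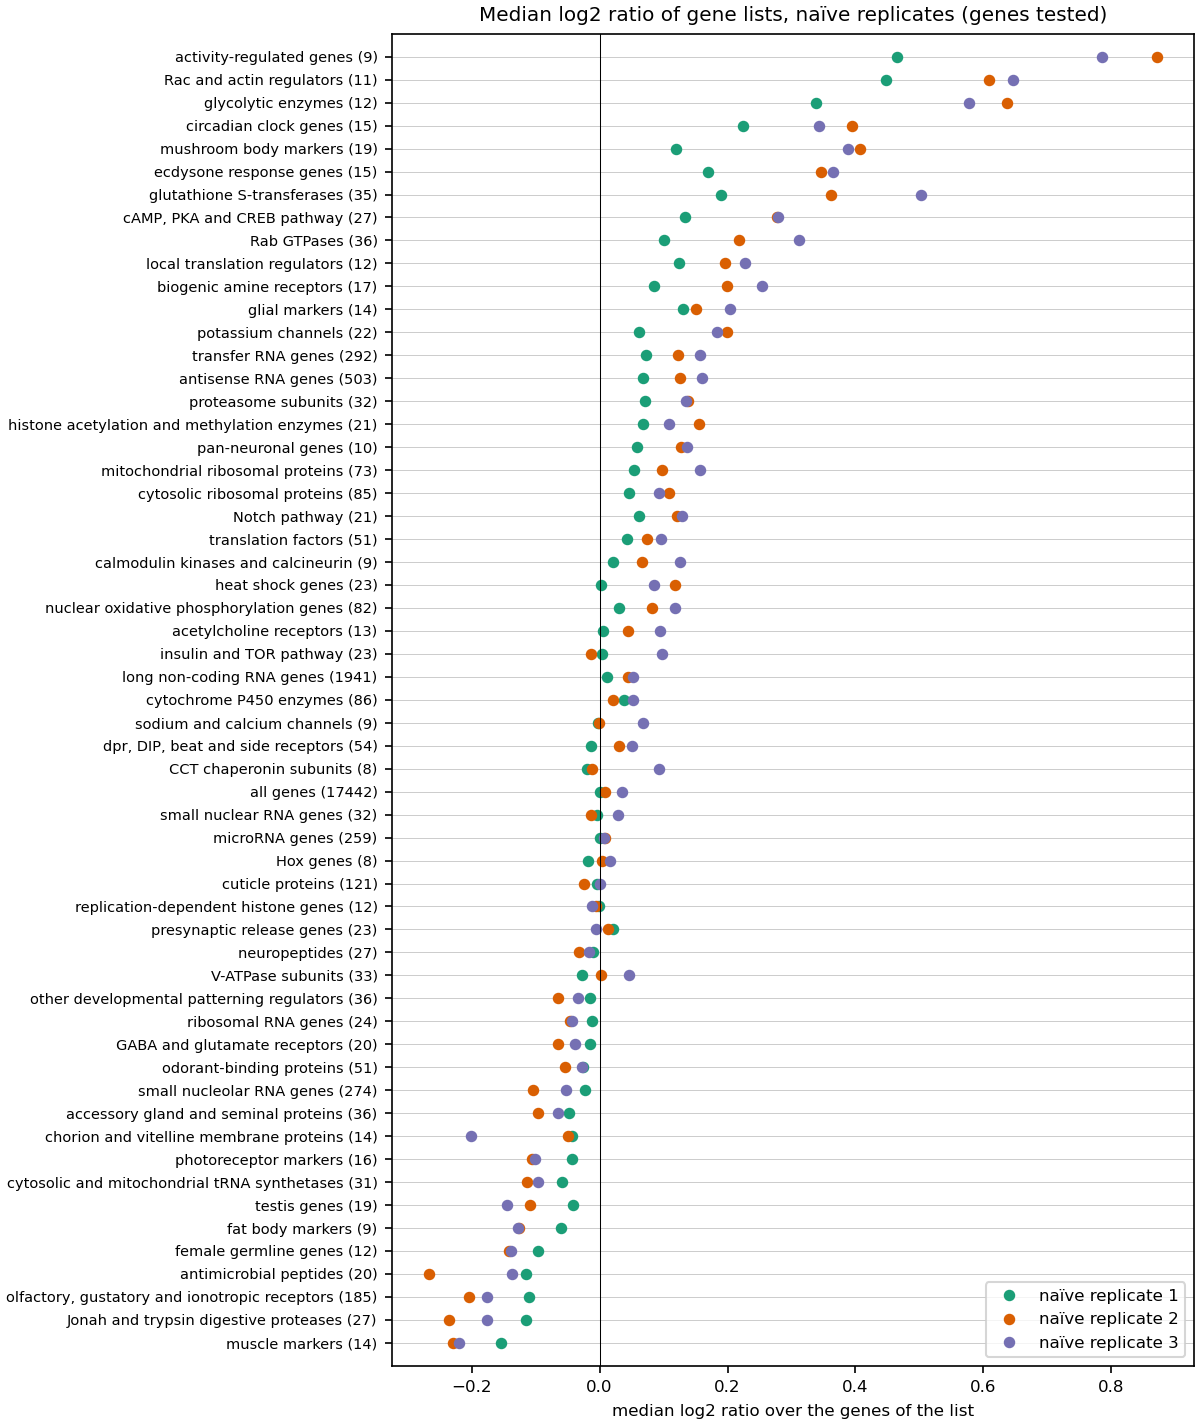
Median log2 ratio (horizontal axis) of each gene list in the 3 naïve replicates (coloured dots), ordered by the median of the gene means, with the number of genes tested in brackets. Activity-regulated genes are at the top with 0.47, 0.87 and 0.79, and muscle markers at the bottom with -0.15, -0.23 and -0.22.

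Activity-regulated genes, which neurons transcribe within minutes of stimulation, had the highest median, with 0.47, 0.87 and 0.79 in replicates 1 to 3. Of the 9 genes, 3 were called above and 0 below, and 8 lay above 0.2 in 3 of 3 replicates, compared to 22.8% of all genes. The immediate early transcription factor cbt was the highest at 0.97, 1.66 and 1.46. It was followed among called genes by kay, the fly Fos, at 0.67, 0.91 and 0.91 over 67 fragments. Arc1, which forms capsids that carry mRNA between cells, had 0.28, 0.29 and 0.35. The means of the other members, given here for the whole list, were 0.78 for puc, 0.76 for Arc2, 0.72 for Hr38, 0.50 for Jra, 0.48 for sr and 0.15 for Mkp3, a phosphatase of ERK. Every gene of the list was positive in 3 of 3 replicates.

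Regulators of Rac and actin, which shape dendritic and axonal growth, had medians of 0.45, 0.61 and 0.65, with 3 of 11 called above. The highest member was chic, the fly profilin, at 0.68, 1.31 and 1.09, which missed the adjusted p threshold with an adjusted p of 0.0111 from limma. Moe, a linker of actin to the membrane, was called at 0.63, 0.95 and 0.90, and the GTPase gene Rho1 at 0.60, 0.72 and 0.98. Pak, a kinase downstream of Rac, was the lowest at 0.06, -0.10 and 0.03, so the list holds genes without a signal. 

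Glycolytic enzymes had medians of 0.34, 0.64 and 0.58, with 5 of 12 called above. Gapdh2 was the highest at 1.13, 1.32 and 0.82, followed among called genes by Pgk at 0.77, 1.16 and 1.18 and by the hexokinase Hex-A at 0.72, 1.02 and 0.88. Pfk, the rate-controlling phosphofructokinase, was the only member below 0 in every replicate, at -0.08, -0.25 and -0.18. Gene lists of other basic cell functions lay closer to 0. Cytosolic ribosomal proteins had a median of 0.10, with 10 of 85 called above and 2 below, and proteasome subunits one of 0.11, with 7 of 32 called above and 0 below. Nuclear genes of oxidative phosphorylation had 0.06 with 8 of 82 above, and the tRNA synthetases -0.09 with 1 of 31 above. 

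Within these lists, single members stood far from the rest. Vha16-1, the proteolipid subunit of the vacuolar proton pump, had log2 ratios of 1.26, 1.98 and 1.84, while the medians of the 33 V-ATPase genes were -0.03, 0.00 and 0.05. Prosbeta6, a subunit of the proteasome core, had 1.28, 1.35 and 1.60, and RpS9 had 1.19, 1.70 and 1.77. RpLP2 had -0.98, -1.40 and -0.26 and did not pass the test (adjusted p = 0.0423 from limma), with replicates that differed by more than 1. The small GTPase Rab1, which acts between the endoplasmic reticulum and the Golgi, had 0.89, 1.55 and 1.33 as the highest of 36 Rab genes, of which 4 were called above and 0 below.

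Glutathione S-transferases, which conjugate toxic compounds, had medians of 0.19, 0.36 and 0.50, and 11 of 35 genes were called above and 2 below. The called genes of the GstE cluster were high, and those of the GstD cluster low. GstE7 had 1.19, 1.64 and 1.35 and GstE6 a mean of 1.28, whereas GstD7 had -0.49, -0.64 and -0.61 and GstD6 had -0.41, -0.68 and -0.59. These genes are short neighbours with 4 to 6 fragments and sequence similarity, so their reads and fragments are not fully separate. Of the cytochrome P450 genes, 11 of 86 were called above and 1 below, led by Cyp6a20 at 0.97, 1.52 and 1.37, with a list median of 0.03.

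The label of the tissue was checked with MB markers, at the level of occupancy. All 19 genes were positive in 3 of 3 replicates, with medians of 0.12, 0.41 and 0.39, but none was called and 5 lay above 0.2 in every replicate. Of all genes, 7512 of 17442 were positive in 3 of 3 replicates and 22.8% lay above 0.2. Of protein-coding genes of 20 to 50 kb, 512 of 706 were positive and 30.5% lay above 0.2, with medians of 0.09, 0.21 and 0.24. The share of markers above 0.2, 26.3%, was thus not higher than in this length bin. The share of positive markers and their medians were higher, but whether the difference goes beyond length was not tested. The highest was toy, a Pax6 gene of the MBs, at 0.35, 0.86 and 0.87 (mean 0.69 ± 0.30, SD, n = 3), and the lowest was the adhesion molecule Fas2 at 0.01, 0.06 and 0.02. For the whole list, the means were 0.57 for prt, 0.49 for Mef2, 0.44 for Pka-C1 and for ey, 0.35 for mub, 0.34 for rut and for 14-3-3zeta, and 0.32 for Dop1R1 and for Dop2R. They were 0.30 for Imp, 0.29 for sNPF, 0.27 for dac, 0.17 for trio, 0.12 for mamo, 0.11 for dnc, 0.08 for ab and 0.06 for chinmo. The median length of these genes was 38.9 kb compared to 1.74 kb for all genes, and the part of length in their values was not tested.

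Markers of other cells in the head gave medians below 0, except for glia. Muscle markers had -0.15, -0.23 and -0.22, with 0 of 14 called above and 1 below, and the muscle actin gene Act79B was the lowest at -0.54, -0.75 and -0.59. Photoreceptor markers had a median of -0.09 with 1 of 16 called in each direction, and the lowest, Arr2, which quenches activated rhodopsin, had -0.40, -0.52 and -0.52. Fat body markers had a median of -0.10, and the lipoprotein gene apolpp was called below at -0.34, -0.54 and -0.50. This gene lies on chromosome 4, where 18 of 114 genes were called below and 1 above. Glial markers had medians of 0.13, 0.15 and 0.20, with 4 of 14 called above and 0 below. The glial RGS gene loco had 0.71, 0.94 and 1.12, and the glutamine synthetase gene Gs2 had 0.62, 0.93 and 0.90. The defining glial regulator repo was the lowest of the list at -0.27, -0.40 and -0.47. Since occupancy need not follow transcription in the same cell, these lists do not name the cells that gave the signal.

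Genes of the cAMP, PKA and CREB pathway had medians of 0.13, 0.28 and 0.28, with 21 of 27 positive in 3 of 3 replicates. Of the list, 2 genes (7.41%) were called above and 0 below, compared to 9.13% of all genes called above. The median length of these genes was 21.6 kb. Of protein-coding genes of 20 to 50 kb, 512 of 706 were positive in 3 of 3 replicates, with medians of 0.09, 0.21 and 0.24. Whether the list differs from genes of its length was not tested. The highest was CrebB, given above. The peptide gene amn, known for its role in memory stability, was called at 0.60, 0.96 and 0.88, and CrebA, another bZIP factor of the family, at 0.42, 0.60 and 0.65. The adenylyl cyclase gene Ac3 was the lowest at -0.20, -0.31 and -0.20. The list median was lower than that of the activity-regulated genes in every replicate.

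Circadian clock genes had medians of 0.22, 0.39 and 0.34, with 3 of 15 called above and 0 below. The transcriptional regulators vri, cwo and Clk were the called ones, with cwo at 0.66, 0.70 and 0.77 and Clk at 0.37, 0.45 and 0.44. By contrast, cyc, the partner of Clk, was the lowest at -0.35, -0.64 and -0.42, with an adjusted p of 0.0132 from limma. Ecdysone response genes had medians of 0.17, 0.35 and 0.37, and Eip74EF was the 1 gene called, at 0.36, 0.50 and 0.58 over 137 fragments. The receptor gene EcR had 0.35, 0.59 and 0.59 (adjusted p = 0.0106 from limma).

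The remaining signalling and neuronal lists lay nearer to the median of all genes than the clock and ecdysone lists, while holding high members. Thor, the fly 4E-BP that restrains translation under low insulin, had 1.27, 1.71 and 1.89 as the highest of the insulin and TOR pathway, in which 6 of 23 genes were called above and 0 below with a median of 0.04 that turned to -0.06 with an unweighted mean over fragments. The cap-binding protein gene eIF4E1 had 0.68, 1.15 and 0.97 and led the local translation regulators. This list had medians of 0.12, 0.20 and 0.23, with 2 of 12 genes called above and 1 below. The inward rectifier Irk1 had 0.63, 0.94 and 0.91 over 62 fragments. Potassium channel genes had medians of 0.06, 0.20 and 0.18, and 2 of 22 were called above. For presynaptic release genes, the medians were 0.02, 0.01 and -0.01, with Syx1A called above at 0.41, 0.51 and 0.49 and the vesicular glutamate transporter gene VGlut called below at -0.29, -0.31 and -0.34. The kinase gene CaMKII had -0.27, -0.26 and -0.25, a close agreement at a low value, with an adjusted p of 0.0104 from limma. It lies on chromosome 4, whose genes had medians of -0.16, -0.17 and -0.10. GABA and glutamate receptors had a median of -0.04 with 1 of 20 called, which was GluRIIE at -0.52, -0.56 and -0.55.

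Several lists of genes used in few tissues were low, while others, such as the glutathione S-transferases above, were not. Digestive proteases of the Jonah and trypsin families had medians of -0.11, -0.24 and -0.18, and 20 of 27 were negative in 3 of 3 replicates, with 1 called in each direction. Olfactory, gustatory and ionotropic receptors had -0.11, -0.20 and -0.18. Of these 185 genes, 144 were negative in 3 of 3 replicates, 18 were called below and 1 above. The exception was Gr32a, a gustatory receptor for bitter compounds and pheromones, at 0.82, 1.25 and 1.15. The antimicrobial peptides had -0.11, -0.27 and -0.14, with 2 of 20 called below and 1 above, which was CecB at 1.12, 1.35 and 1.17. Female germline genes had a median of -0.13 with 0 of 12 called, and testis genes one of -0.10 with 1 of 19 called below, betaTub85D.

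Developmental regulators had list medians close to 0, with members far from it. The 8 Hox genes had medians of -0.02, 0.00 and 0.02 with 0 called, although they cover a median of 78 fragments each. The highest was Dfd at 0.22, 0.47 and 0.38, and the lowest Ubx at -0.08, -0.16 and -0.14 over 168 fragments. Of 36 other patterning regulators, with a median of -0.03, 0 were called. Their highest was Dll, a regulator of limb development, at 0.39, 0.46 and 0.64, and their lowest slp1, a segmentation gene, at -0.58, -1.01 and -0.60. The Notch pathway had a median of 0.10, with 6 of 21 genes above 0.2 and 4 below -0.2 in 3 of 3 replicates. In it, nearby genes of the Enhancer of split complex took opposite directions. E(spl)mbeta-HLH was called above at 0.53, 0.49 and 0.68, and E(spl)mdelta-HLH was called below at -0.52, -0.88 and -0.73. The highest of the list, E(spl)m2-BFM, had 0.68, 1.08 and 1.31 and missed the threshold with an adjusted p of 0.0113 from limma.

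Short non-coding genes gave the extreme values of the whole table, each over a single fragment or a few. The transfer RNA gene tRNA:Lys-CTT-1-5 had the highest mean of all genes, at 2.59, 2.83 and 3.04 over 1 fragment, and 29 of 292 transfer RNA genes were called above and 5 below. The microRNA gene mir-9a had 2.20, 3.04 and 2.68, and mir-2490 had the lowest mean of all genes at -1.60, -1.78 and -1.19. Among microRNA genes, 21 of 259 were called above and 6 below, so their shares were close to those of all genes. The snoRNA genes (snoRNA:Psi28S-3405a, b and c) had the same values of 2.06, 2.58 and 2.49, because they lie on the same fragment. Of 111 replication-dependent histone genes only 12 had a value other than 0, and of 116 ribosomal RNA genes 24, and none of either list was called. 

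Naïve flies were then compared with unpaired flies, to ask whether exposure to odor and sucrose without association went along with another occupancy. Since the naïve interval is uncertain, induction interval and age may also differ in at least 1 of the comparisons, and this cannot be told apart from the exposure. In a fit of 9 profiles, limma called 0 of 17442 genes (0%) between naïve and unpaired TI-1 flies and 0 (0%) between naïve and unpaired TI-2 flies, with smallest adjusted p of 0.368 and 0.346. At an unadjusted p under 0.05, 72 genes were higher and 2151 lower in naïve than in unpaired TI-1 flies, and 910 were higher and 1579 lower than in unpaired TI-2 flies. These counts rested on single replicates. For TI-1 they were 1089 and 1899 without replicate 1, 9 and 649 without replicate 2, and 28 and 1121 without replicate 3. For TI-2 they were 1717 and 2223, 384 and 188, and 220 and 338, so that no balance of direction can be read for TI-2. For TI-1 more genes were lower than higher in each of these settings, and the median difference over all genes was -0.05. The medians of all genes in the unpaired TI-1 profiles were 0.09, 0.04 and 0.03, compared to 0.00, 0.01 and 0.04 in naïve flies. A shift of whole profiles cannot be told apart here from changes at single genes. The median standard error of a difference was 0.09. The replicates 3 of the unpaired flies stood apart, with correlations to the naïve mean across genes of 0.78 (TI-1) and 0.70 (TI-2) against 0.89 to 0.95 for the other 4. With replicate 3 of every group left out, 0 genes were called as well. The deposited profiles spell chromosome names in 2 ways, the same in naïve and unpaired TI-1 flies and another in unpaired TI-2 flies, and in the second comparison this cannot be told apart from the group.

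The genes called in naïve flies kept their direction in the 6 unpaired profiles. Of the 1593 genes called above, 93.6% to 100% were positive in a profile, and of the 461 called below, 89.6% to 100% were negative, with the lowest shares in replicate 3 of TI-2. CG17734 had 3.17, 2.47 and 2.40 in unpaired TI-1 flies and 2.27, 3.11 and 2.85 in unpaired TI-2 flies, so the naïve and unpaired values overlapped. For CG5665, unpaired TI-1 flies had -0.93, -0.97 and -0.64, all nearer to 0 than the naïve values. The difference was -0.50 (standard error 0.14, adjusted p = 0.368 from limma). CG5665 was chosen as the lowest called gene in naïve flies, so a shift towards 0 elsewhere cannot be told apart from this choice. The median difference from unpaired TI-1 flies was -0.17 over all genes called below and 0.04 over those called above. CrebB had 0.92, 0.68 and 0.76 in unpaired TI-1 flies, within the naïve range of 0.59 to 1.19, and in unpaired TI-2 flies 0.62, 0.68 and 0.44. In paired flies, the genes called above were positive in 90.0% to 100% of cases, with the lowest share in replicate 3 of paired TI-1 flies. The genes called below were negative in 81.1% to 99.6% of cases in 5 paired profiles, but in 24.5% in this replicate. Its median was 0.62 for all genes, 0.86 for those called above and 0.74 for those called below. Its correlation to the naïve mean across genes was 0.04. The 90.0% can therefore not be read as a kept direction, since genes of either call were mostly positive there. In the other 5 paired profiles, the median of all genes lay between 0.01 and 0.12.

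**Figure D5:**
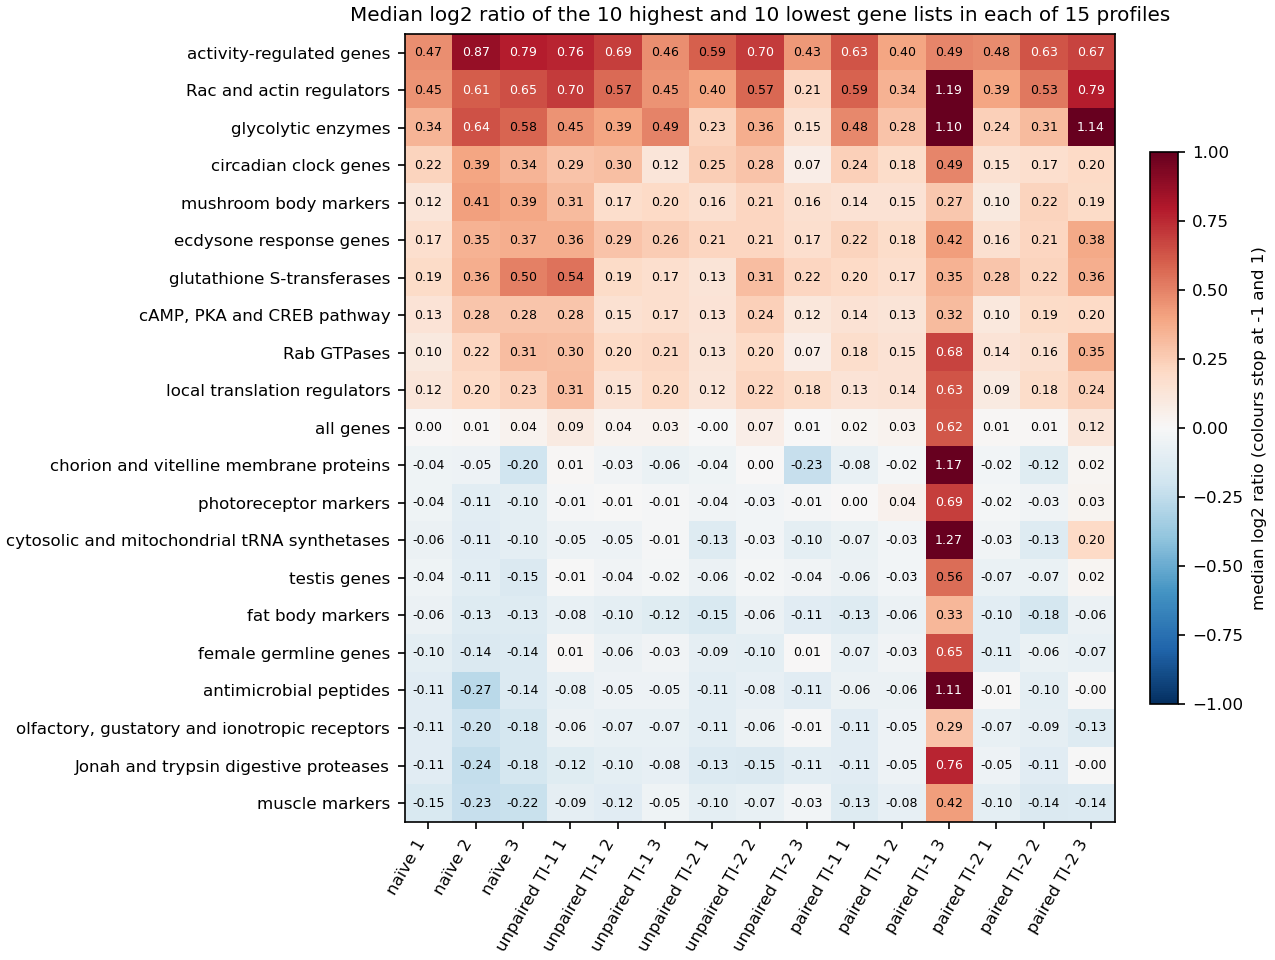
Median log2 ratio (colour and printed value) of the 10 highest and the 10 lowest gene lists and of all genes, in rows, in each of the 15 profiles, in columns. Activity-regulated genes stay between 0.40 and 0.87 in every profile. Replicate 3 of paired TI-1 flies is high for nearly all lists, and there the 0.49 of the activity-regulated genes lies below the 0.62 of all genes.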

How the data were processed

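For each GATC fragment, the authors deposited log2 values of Dam::CrebB relative to Dam-only. They came from the damid software, run on a single read of each pair, which scales both samples and adds a pseudocount before the ratio is formed, so fragments with few reads are drawn towards 0. Read counts were not at hand, so depth per profile and counting error are unknown, and precision rests on 3 replicates. Deposited gene lists hold the authors' ratios and FDR per transcript and were not used. Here, gene values were calculated in Python 3.11.15 (numpy 2.4.6, pandas 2.3.3) and tested in R 4.3.3 with the moderated statistic of limma 3.58.1, on both sides, for the 3 naïve profiles against 0 and for naïve against unpaired flies in 9 profiles. The fits were tested on simulated data first, and plots used matplotlib 3.10.9. The thresholds follow the methods of the study. Since 0 is set by the normalization of each ratio, values are relative within a profile. Named were the 12 highest and 12 lowest called genes with at least 5 fragments, 5 each way with at least 50 fragments, CrebB, and in each list its highest and lowest member with up to 2 called genes next to them. Lists given whole and genes of the widest stretches were added after their values were seen. The members and lists were chosen with earlier results of these data known. Promoter motifs were not analysed, since they need sequence and strand.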

Additional observations from a re-analysis of the deposited data

How the results depend on the processing

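Counts of called genes depended on the setting, while directions did not turn for any called gene that is named. Above and below 0, the counts were 4504 and 2627 with quantile normalization of the 3 naïve profiles, 2489 and 915 without fragments at exactly 0, 2938 and 1424 for genes of at least 5 fragments, 4019 and 2567 with 9 profiles in a single fit, and 5058 and 3051 at an adjusted p under 0.05. Leaving out a replicate gave 0 to 3645 genes above and 0 to 1350 below. At an adjusted p under 0.05, an alternative chosen after seeing the data, 0 genes were left without replicate 2 or 3, and 5652 above and 3550 below without replicate 1. Centring, the unweighted mean, a prior that follows fragment number and no minimum size kept the counts within 1.5 times. The unweighted mean moved 18 of the 56 list medians by more than the replicate spread, and it left 39 of 228 named genes short of the threshold while 3 others passed it. Deviations of same-numbered naïve and unpaired profiles correlated between -0.37 and 0.26, and those of different numbers between -0.33 and 0.34. From 3 replicates per group, these values cannot settle whether equal numbers mark paired samples. With the replicate block, naïve against unpaired flies also gave 0 genes in each direction. All other settings gave 0 there. Promoter windows were not run, because the gene table lists no strand. The depth of each profile is unknown beyond the average that the methods state for a sample, so what it limits was not measured.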
